A study of Mus musculus with 6 samples.

Results

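The genes described here encode the subunits of the mitochondrial respiratory chain and of the ATP synthase, measured in macrophages from the fat of obese and lean mice. They were chosen by symbol, not by value: array rows with a single gene symbol beginning with Nduf, Uqcr, Atp5, Cox4, Cox5, Cox6, Cox7 or Cox8, or equal to Sdha, Sdhb, Sdhc, Sdhd, Cyc1 or Cycs, with the brightest row kept for each gene. This gave 95 of the 30145 genes tested: 34 of complex I, 4 of complex II, 9 of complex III, cytochrome c, 20 of complex IV, 16 of complex V, 8 assembly factors of complex I and 3 pseudogenes or gene copies. The symbols are those of the array's annotation, so Atp5g1 to Atp5g3, for example, are genes now called Atp5mc1 to Atp5mc3.

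The series concerned how diet-induced obesity changes the transcriptome of adipose tissue macrophages. F4/80+ cells were taken by antibody labelling and magnetic selection from the collagenase-digested epididymal fat of male C57BL/6J mice aged 22 weeks. The mice had eaten normal chow (NCD, lean) or a diet with 60% fat (HFD, obese) for 16 weeks, from 6 weeks of age. Each diet had 3 samples and 1 array per sample. An NCD sample pooled the cells of 20 mice and an HFD sample those of 10 mice, and how single mice vary within a pool is not known from these data. The labels name no transgene or drug for either group. The arrays are written NCD1 to NCD3 and HFD1 to HFD3, and values for the 3 arrays of a diet are given in that order. Levels are log2 expression. A change is the HFD mean less the NCD mean on that scale, given ± its standard error (SE) from limma, which was fitted over all genes. A gene was called, and is said to have risen or fallen, at a Benjamini-Hochberg adjusted p below 0.05.

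Complex I (NADH dehydrogenase) and complex II (succinate dehydrogenase) pass electrons to ubiquinone, complex III passes them on to cytochrome c, and complex IV (cytochrome c oxidase) passes them to oxygen. Complexes I, III and IV pump protons out of the matrix, and complex V, the ATP synthase, lets them return through a ring of c subunits to make ATP. Complex II pumps no protons and is at the same time an enzyme of the tricarboxylic acid cycle. In macrophages, the use of oxidative phosphorylation and the oxidation of succinate are known to shift with the state of activation.

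Complex II had the largest median change and the c subunit genes of complex V include one that rose, so the bases just before the start site are shown for the genes of both sets that were found in RefSeq's promoter table (GRCm38.p6). Each run is 150 bases, 5′ to 3′ on the gene's strand, and ends at the base before the annotated start. Capitals mark matches, on either strand, to the NRF1 core GCATGCGC, the ETS core CCGGAAG or the CCAAT box CCAAT. These are letter motifs of factors known to act at many promoters of respiratory genes. Sdha lies on chr13:74350241-74350390 (minus strand), Sdhb on chr4:140961121-140961270 (plus strand) and Sdhd on chr9:50603850-50603999 (minus strand). Atp5g1 lies on chr11:96075632-96075781, Atp5g2 on chr15:102671048-102671197 and Atp5g3 on chr2:73911327-73911476, all on the minus strand.
Sdha: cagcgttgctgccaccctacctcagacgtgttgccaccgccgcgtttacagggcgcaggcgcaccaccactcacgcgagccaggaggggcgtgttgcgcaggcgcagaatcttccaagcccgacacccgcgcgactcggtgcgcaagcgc
Sdhb: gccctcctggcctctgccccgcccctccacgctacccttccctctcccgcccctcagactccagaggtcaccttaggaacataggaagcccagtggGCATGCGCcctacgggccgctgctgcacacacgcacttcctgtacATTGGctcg
Sdhd: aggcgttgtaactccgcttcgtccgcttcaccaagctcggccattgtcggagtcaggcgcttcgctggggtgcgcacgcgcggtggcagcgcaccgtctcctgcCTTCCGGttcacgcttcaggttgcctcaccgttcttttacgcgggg
Atp5g1: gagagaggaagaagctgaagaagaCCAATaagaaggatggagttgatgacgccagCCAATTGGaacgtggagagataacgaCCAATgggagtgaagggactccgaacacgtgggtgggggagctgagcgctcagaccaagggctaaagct
Atp5g2: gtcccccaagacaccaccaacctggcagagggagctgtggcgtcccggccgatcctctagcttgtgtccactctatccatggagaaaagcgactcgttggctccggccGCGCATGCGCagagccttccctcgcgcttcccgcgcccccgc
Atp5g3: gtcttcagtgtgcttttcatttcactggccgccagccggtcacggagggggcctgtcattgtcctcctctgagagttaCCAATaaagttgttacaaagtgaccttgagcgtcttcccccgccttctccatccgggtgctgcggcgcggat

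Sdha had no match to any of these motifs in its window. Sdhb had 1 NRF1 core and, on the other strand, 1 CCAAT box, and Sdhd had 1 ETS core on the other strand. Atp5g1, whose gene rose, had 4 CCAAT matches, a pair of which overlap on opposite strands. Atp5g2 had 2 NRF1 matches that overlap on opposite strands, and Atp5g3 had 1 CCAAT box. Of the 95 genes, 75 had an entry in the table. The NRF1 core was in 7 of the 75 windows (9.33%) against 2.10% of the windows of all 27025 genes, the ETS core in 11 (14.7%) against 6.33%, and the CCAAT box in 24 (32.0%) against 27.7%. A match describes the letters in this window only.

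Of the 95 genes, 5 rose after HFD and 0 fell. The 5 were Sdhc, Sdhd, Atp5g1, Ndufc1 and Ndufaf6, and their folds lay between 1.39 and 1.68, so 0 reached 2-fold. By comparison with this count (5.26%), 7.83% of all genes tested were called, 4.96% as higher and 2.87% as lower. Of the genes at or above the background level, 13.3% were called, 8.73% as higher and 4.59% as lower. The share of members called at or above that level was lower, at 5.56%. At an unadjusted p below 0.05 there were 26 members (27.4%), against 24.4% of all genes. Among genes at or above the background level, the shares were 27.8% of members and 37.4% of all such genes. A further 9 members had an adjusted p between 0.05 and 0.1. Of these, 8 had positive changes (Ndufa2, Ndufs1, Ndufa10, Ndufb8, Sdhb, Uqcr10, Cox6a2 and Atp5f1) and Ndufa4l2 had a negative one.

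The members' changes were small and mostly of 1 sign. The difference was above 0 for 83 of 95 members (87.4%), against 53.1% of all genes and 52.4% of those at or above the array's background level of 6.23. The median change was 0.18 against 0.01 over all genes tested. Every HFD array lay above every NCD array for 36 members (37.9%), against 17.6% of all genes. This share is closer to that of the 15747 genes at or above background, a level that 90 of the members reached: there it was 26.6%. Every HFD array lay below every NCD array for 2 members, Ndufa4l2 and Cox4i2, against 13.0% of all genes and 17.5% of those at or above background. The groups overlapped for the other 57. In bulk samples such as these, more cells of a type and more RNA per cell cannot be told apart.

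**Figure D1:**
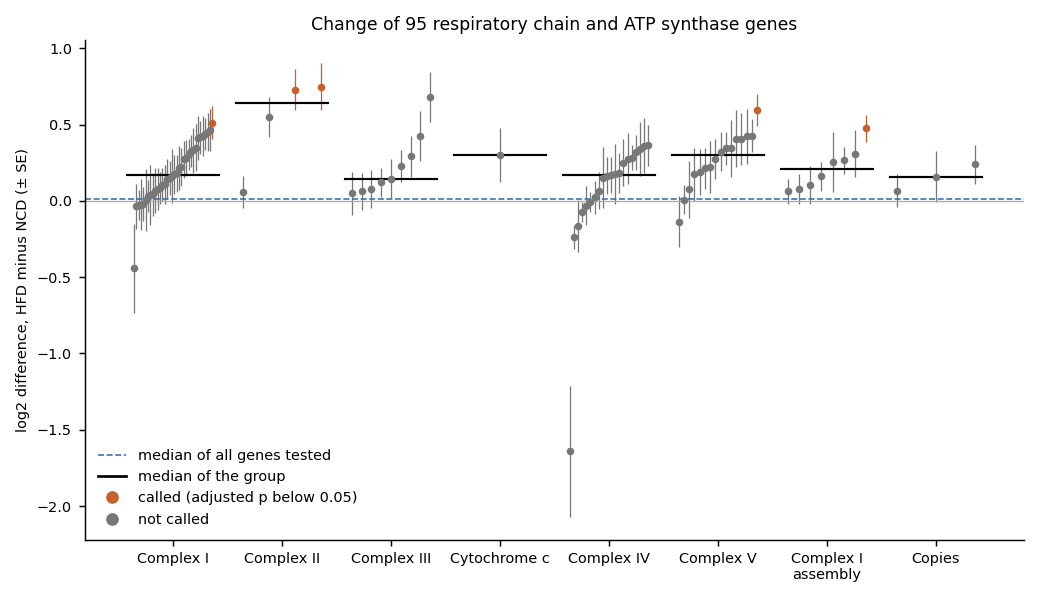
Each point is 1 gene's log2 difference, HFD minus NCD, with its SE, from 3 arrays per diet, grouped by complex, and orange points are called at an adjusted p below 0.05. The medians of complexes I to V (0.17, 0.64, 0.15, 0.17 and 0.30) lie above the dashed median of all genes (0.01), and Ndufa4l2 in complex IV stands lowest at −1.64.

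Part of this pattern moved with a single lean pool. NCD1 was the lowest of the 6 arrays for 62 of the 95 members (65.3%), against 15.0% of all genes and 17.8% of those at or above background. The members' mean deviation from their own 6-array means was −0.24 on NCD1, −0.02 on NCD2 and −0.03 on NCD3, and 0.02, 0.06 and 0.20 on HFD1 to HFD3. Both ends of this order were thus single pools, and the other 4 arrays lay between −0.03 and 0.06. Without NCD1 the median change was 0.12 and 70 members were positive, and all 5 calls held. Without HFD3 the median was 0.14 and 79 members were positive, with 0 calls. The 5 calls were also lost without NCD2, HFD1 or HFD2 (adjusted p 0.0614 to 0.152 over these 4 fits), and without NCD3 those of Ndufaf6, Ndufc1 and Sdhc held. Over all genes, the share called was 15.6% when NCD1 was left out, 1.57% or 5.94% for NCD2 or NCD3, and 3.38%, 1.47% or 1.51% for HFD1, HFD2 or HFD3. The changes of the 5 members kept their sign and stayed within 0.42 to 0.85 in all 6 of these fits.

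**Figure D2:**
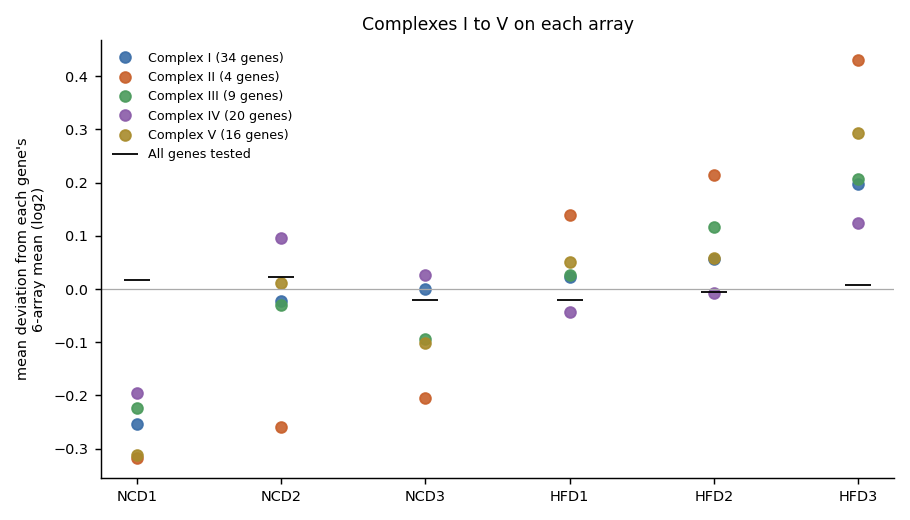
For each array, the points give the mean deviation of a complex's genes from each gene's own 6-array mean, in log2, and the black dashes give all genes tested. All 5 complexes lie lowest on NCD1 (−0.20 to −0.32) and highest on HFD3 (0.12 to 0.43). Complexes II and III are below 0 on all NCD arrays and above 0 on all HFD arrays.

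Other measures also separated the pools. Macrophage markers were high on all arrays: Adgre1, the gene of the F4/80 antigen used for selection, was 16.08, 15.93 and 15.05 in NCD and 16.54, 16.55 and 16.70 in HFD (0.91 ± 0.27, adjusted p = 0.0924). Of the 8 macrophage markers measured, Fcgr1 and Cd68 rose and Mertk fell, and the mean level of the 8 was 14.63 to 15.23 in NCD and 15.33 to 15.50 in HFD. All 7 cell cycle markers rose (mean level 8.17 to 8.92 in NCD and 10.21 to 10.75 in HFD), and 5 of 6 fibroblast and progenitor markers rose (9.08 to 9.44 and 10.31 to 11.04). Dcn, the remaining fibroblast marker, went the other way without overlap and was not called. It was 13.58, 12.60 and 12.96 in NCD and 12.49, 12.25 and 11.75 in HFD (−0.88 ± 0.29, adjusted p = 0.126). Of 8 smooth muscle and pericyte markers, 7 fell (10.90 to 12.89 and 8.08 to 9.31), as did all 5 mesothelial markers (7.22 to 7.89 and 5.55 to 5.75). Of the 9 endothelial markers 0 were called, with 7 at an unadjusted p below 0.05, and their mean level was 12.32 to 14.77 in NCD and 11.46 to 12.89 in HFD. Markers of adipocytes, T cells, B cells, neutrophils and striated muscle had 0 genes called, and 0 genes of the last 4 lists, against 1 of 7 adipocyte markers, had an unadjusted p below 0.05. Some of these markers were high in 1 pool. The 4 neutrophil markers deviated by 2.41 on HFD3 against −1.65 on HFD1 and −1.73 on HFD2, and the 3 B cell markers by 1.57 on NCD1 against 0.09 on NCD2 and −0.56 on NCD3. HFD3 and NCD1 are also the pools where the members were highest and lowest. The part of these cell types and of cell division in the members' changes was not tested. A fit with the endothelial markers as a covariate was run. Those markers deviated by −0.56, 1.47 and 1.89 in NCD and by 0.02, −1.40 and −1.41 in HFD, so it cannot tell their part from that of diet. In that fit the members' median was 0.26, 89 were positive and 0 were called, beside 2.34% of all genes called.

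In complex II, 3 of the 4 subunits had every HFD array above every NCD array and the fourth had overlapping groups. Over all genes the share with every HFD array higher was 17.6%, and 26.6% at or above background. The median change of the quartet was 0.64. Sdhc, which encodes a membrane subunit that holds the haem and helps to bind ubiquinone, was 9.67, 9.76 and 10.01 in NCD and 10.37, 10.53 and 10.78 in HFD. The diets did not overlap, and Sdhc rose 1.68-fold (0.75 ± 0.15, adjusted p = 0.0373). Sdhd, the other membrane anchor, was 11.39, 11.29 and 11.35 in NCD and 11.92, 12.00 and 12.31 in HFD. Here the NCD pools lay close together and HFD3 stood above the other HFD pools. Sdhd rose 1.66-fold (0.73 ± 0.14, adjusted p = 0.0274).

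Sdhb, the iron-sulfur subunit that carries electrons from the flavin to ubiquinone, was 10.40, 10.66 and 10.46 in NCD and 10.92, 11.02 and 11.22 in HFD. Its groups did not overlap, but it was not called (0.55 ± 0.13, adjusted p = 0.0570). Sdha, the catalytic flavoprotein that oxidises succinate, was 11.33, 11.31 and 11.42 in NCD and 11.40, 11.37 and 11.47 in HFD. These values overlapped, and the change was 0.06 ± 0.10 (adjusted p = 0.794), at most 0.09 when any 1 array was left out. The change of each partner exceeded that of Sdha, by 0.49 for Sdhb, 0.69 for Sdhc and 0.67 for Sdhd, with the within-array difference higher on all 3 HFD arrays than on any NCD array. For each of these the two-sided exact permutation p was 0.1, the smallest that 3 arrays against 3 allow, and 0.125 after adjustment over the 5 pairs compared. This test cannot pass a threshold of 0.05 with 3 arrays against 3, so its p does not decide whether the subunits differed.

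In complex V the median change was 0.30 and 15 of 16 genes were positive. Every HFD array lay above every NCD array for 8 genes (50.0%), against 17.6% of all genes and 26.6% of those at or above background. Atp5g1, Atp5g2 and Atp5g3 encode the same mature c subunit of the proton-driven ring with different import sequences. Atp5g1 was 8.85, 8.95 and 8.76 in NCD and 9.35, 9.52 and 9.47 in HFD. The diets were well apart, and Atp5g1 rose 1.51-fold (0.60 ± 0.11, adjusted p = 0.0245). Atp5g2 was 13.92, 14.39 and 14.21 in NCD and 14.39, 14.53 and 14.82 in HFD, with NCD2 and HFD1 almost level (0.41 ± 0.17, adjusted p = 0.203). Atp5g3 was 10.79, 11.13 and 11.07 in NCD and 11.13, 11.05 and 11.39 in HFD, which overlap (0.19 ± 0.15, adjusted p = 0.513). The change of Atp5g1 exceeded that of Atp5g3 by 0.41 (exact permutation p = 0.1, adjusted over the 5 pairs 0.125) and that of Atp5g2 by 0.19 (p = 0.2, adjusted 0.2). The smallest p of this test is again 0.1, so these values do not decide whether the c subunit genes differed.

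**Figure D3:**
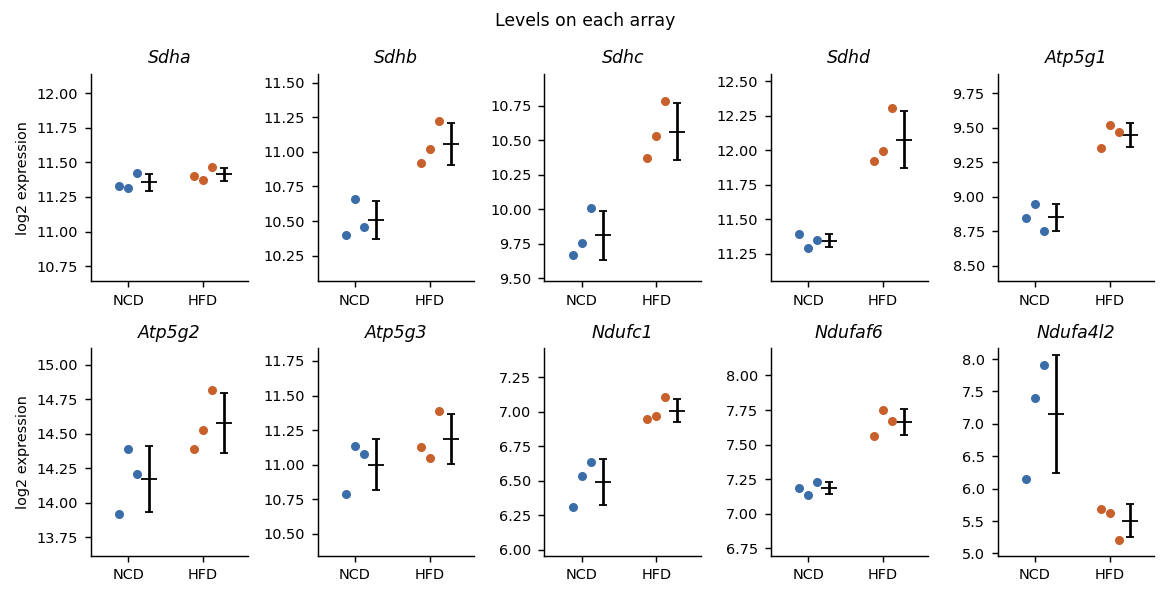
Log2 expression of 10 genes on each of the 3 NCD (blue) and 3 HFD (orange) arrays, with bars for the mean ± SD of each diet. The axes of the panels differ in position and, for Ndufa4l2, in span. Sdhc, Sdhd, Atp5g1, Ndufc1 and Ndufaf6 show separate groups, whereas Sdha lies between 11.31 and 11.47 on all arrays and Ndufa4l2 is spread over 6.14 to 7.91 in NCD.

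The rest of complex V was not called. The catalytic head genes Atp5a1 and Atp5b had changes of 0.34 ± 0.11 (adjusted p = 0.108) and 0.27 ± 0.13 (adjusted p = 0.257), with no overlap between diets in either. Atp5f1, which encodes subunit b of the peripheral stalk, was 10.55, 10.48 and 10.58 in NCD and 10.89, 10.93 and 11.07 in HFD (0.43 ± 0.11, adjusted p = 0.0634). The lowest value of the complex was that of Atp5j, a stalk subunit also known as coupling factor 6, at −0.14 ± 0.17 (adjusted p = 0.694). By contrast Atpif1, which encodes the inhibitor that binds the ATP synthase and blocks its reverse, ATP-splitting action, was 8.16, 8.15 and 7.83 in NCD and 8.84, 8.99 and 9.06 in HFD. It is not a subunit and was measured as part of another list. Atpif1 rose 1.89-fold (0.92 ± 0.13, adjusted p = 0.0130), and its adjusted p was 0.0097 to 0.0700 when 1 array was left out.

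Complex I had 34 members measured, with a median change of 0.17 and 29 positive. Its 6 core catalytic subunits had a median of 0.18 and its 28 accessory subunits one of 0.17. Only Ndufc1, an accessory subunit of the membrane arm, was called. It was 6.31, 6.53 and 6.64 in NCD, near the background level, and 6.95, 6.97 and 7.10 in HFD. The groups did not overlap and Ndufc1 rose 1.43-fold (0.51 ± 0.11, adjusted p = 0.0397). Ndufs1, the largest iron-sulfur subunit of the arm that takes electrons from NADH, was 11.13, 10.81 and 11.03 in NCD and 11.42, 11.40 and 11.50 in HFD. It missed the threshold (0.45 ± 0.12, adjusted p = 0.0786), as did the accessory subunits Ndufa10 (0.44 ± 0.11, adjusted p = 0.0582) and Ndufb8 (0.42 ± 0.11, adjusted p = 0.0703). NCD1 was the lowest array for 28 of the 34 genes of complex I.

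The complex I gene that went furthest down was Ndufa8, an accessory subunit of the intermembrane space side. It was 11.27, 12.08 and 12.43 in NCD and 11.52, 11.33 and 11.59 in HFD. NCD2 and NCD3 were high and NCD1 lay below all HFD pools, and the gene was not called (−0.44 ± 0.29, adjusted p = 0.419). Without NCD1 the change was −0.77 (adjusted p = 0.0245), without NCD3 it was −0.19 (adjusted p = 0.720), and with the endothelial covariate it was 0.18 (adjusted p = 0.823).

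Of the 8 assembly factors of complex I that the symbols brought in, all were positive, with a median of 0.21. Ndufaf6, a factor needed to build complex I, was 7.19, 7.14 and 7.23 in NCD and 7.56, 7.75 and 7.67 in HFD. Both groups were narrow, and Ndufaf6 rose 1.39-fold (0.48 ± 0.09, adjusted p = 0.0284). Atp5sl is counted with these, because the gene is now named Dmac2, a complex I assembly gene, and not an ATP synthase subunit (0.06 ± 0.08). A list of 38 further assembly factors of all complexes had 4 that rose and 0 that fell, a median of 0.21 and 31 positive. The share called was 10.5%, against 7.83% of all genes and 13.3% of those at or above background. Tmem126b, which helps to build the membrane arm of complex I, rose 1.78-fold (0.83 ± 0.14, adjusted p = 0.0226), and Cox10, which acts in making the haem of complex IV, rose 1.41-fold (0.49 ± 0.09, adjusted p = 0.0272). Lrpprc, which stabilises mitochondrial messenger RNA, rose 1.44-fold (0.52 ± 0.12, adjusted p = 0.0459), and Tmem126a rose 1.51-fold (0.59 ± 0.14, adjusted p = 0.0487). Over the 6 fits without 1 array, Tmem126b was called in 2, and Cox10, Lrpprc and Tmem126a in 1 each.

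Complex III had a median change of 0.15, and all 9 genes were positive with 0 called by limma and 2 at an unadjusted p below 0.05. Uqcr10, the small subunit beside cytochrome c1, was 7.48, 8.03 and 7.64 in NCD and 8.23, 8.42 and 8.56 in HFD. The groups were apart although NCD2 came near HFD1, and the change was 0.68 ± 0.17 (adjusted p = 0.0589). The electron-carrying subunits had smaller differences: that of Cyc1, cytochrome c1, was 0.29 ± 0.13 (adjusted p = 0.244) and that of Uqcrfs1, the Rieske protein, 0.12 ± 0.09 (adjusted p = 0.501). At the low end, Uqcrh differed by 0.05 ± 0.14 (adjusted p = 0.881). Cycs, cytochrome c itself, was 13.36, 12.72 and 13.20 in NCD and 13.34, 13.46 and 13.39 in HFD, so that NCD1 lay among the HFD arrays (0.30 ± 0.18, adjusted p = 0.370). Without NCD2, the lowest array, the difference was 0.11. The brightest row for Cycs carries an identifier on chromosome 19 while RefSeq places the gene on chromosome 6, and the row on chromosome 6 gave 0.21.

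Complex IV had 20 members with a median of 0.17, which was 0.052 without NCD1, 0.099 without HFD3 and 0.066 with array weights. It held Ndufa4l2, the member with the lowest change. Its 11 common subunits had a median of 0.18, 10 were positive and 0 were called by limma, with 1 at an unadjusted p below 0.05. Common subunits with a tissue-restricted partner were Cox6b1 (0.36), Ndufa4 (0.34), Cox6a1 (0.18), Cox8a (0.18), Cox4i1 (0.17), Cox7b (0.17) and Cox7a2 (0.15), with adjusted p from 0.282 to 0.713. Without NCD1, Cox8a was at −0.014 and Cox7a2 at −0.033, so their direction rested on that pool. Among the 8 tissue-restricted isoforms 3 were positive, 5 had a mean below the background level, and 0 were called, with 4 at an unadjusted p below 0.05. Cox7a1, the heart and muscle isoform, had 0.36 ± 0.14 (adjusted p = 0.164) with levels of 6.93 to 7.24 in NCD and 7.37 to 7.71 in HFD. Cox6a2, another muscle isoform, had 0.28 ± 0.08 (adjusted p = 0.0935) but stayed at 5.84 to 6.25, below or at background.

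Cox4i2 and Ndufa4l2 were the 2 members whose HFD arrays all lay below their NCD arrays. Cox4i2, an isoform of the regulatory subunit known to be induced by low oxygen and abundant in lung and pericytes, was 6.93, 7.01 and 6.99 in NCD and 6.79, 6.77 and 6.67 in HFD (−0.23 ± 0.08, adjusted p = 0.128). Ndufa4l2, a hypoxia-inducible relative of Ndufa4 also known as a pericyte marker, was 6.14, 7.39 and 7.91 in NCD and 5.69, 5.62 and 5.21 in HFD. It was above the background level on NCD2 and NCD3 alone, and below it on NCD1 and every HFD array. Its change of −1.64 ± 0.43 was the largest of any member in size and was not called (adjusted p = 0.0691). It was called in 3 alternative fits: without NCD1 it was −2.15 (adjusted p = 0.00518), with arrays weighted by their quality −1.74 (adjusted p = 0.0171), and with dim genes left out of the test the adjusted p was 0.0491. Without NCD3 it was −1.26 (adjusted p = 0.116), and without 1 of the other 4 arrays the adjusted p was 0.129 to 0.231.

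**Figure D4:**
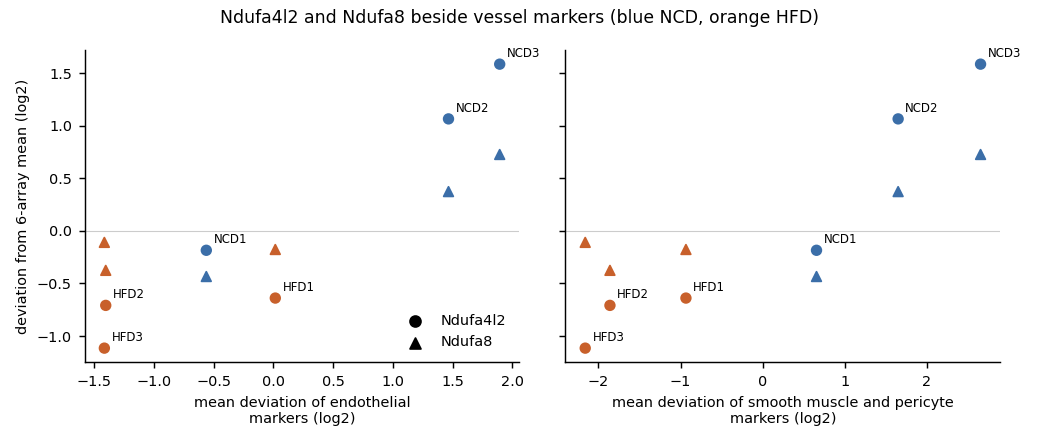
The deviation of Ndufa4l2 (circles) and Ndufa8 (triangles) from its 6-array mean on each array, against the mean deviation of 9 endothelial markers (left) and 8 smooth muscle and pericyte markers (right), all in log2, with NCD in blue and HFD in orange. NCD2 and NCD3 are highest on every axis, and NCD1 lies below them on every axis.

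NCD2 and NCD3, where both genes were highest, also had the highest vessel markers. Smooth muscle and pericyte markers deviated by 0.65, 1.65 and 2.65 on NCD1 to NCD3 and by −0.93, −1.86 and −2.16 on HFD1 to HFD3. The endothelial markers deviated by −0.56, 1.47 and 1.89 and by 0.02, −1.40 and −1.41. With the endothelial markers as a covariate the change of Ndufa4l2 was −0.62 (adjusted p = 0.391), in a fit that cannot tell these markers from diet. The part of pericytes in the level of Ndufa4l2 was not tested.

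Subunits encoded in the mitochondrial genome were measured for 5 of 13 genes. ND3 was 18.33, 18.39 and 18.28 in NCD and 18.67, 18.50 and 18.60 in HFD (0.25 ± 0.08, adjusted p = 0.102). The others differed by 0.11 (COX1), 0.14 (COX2), 0.11 (ND2) and −0.04 (ND6), and limma called 0 of 5, with 1 at an unadjusted p below 0.05. NCD1 was the lowest array for 0 of these 5 genes.

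Among 142 measured genes of 8 other lists of mitochondrial energy metabolism, these 5 included, 10 rose and 1 fell. The share called was 7.75%, against 7.83% of all genes and 13.3% of those at or above background. Leaving out NCD1 gave 22 calls in place of 11, leaving out NCD2, NCD3 or HFD1 gave 1, 5 or 2, and leaving out HFD2 or HFD3 gave 0. The carriers and import channels of the mitochondrial membranes had the largest median of these lists, 0.37, and all 23 were positive. Every HFD array lay above every NCD array for 19 of them (82.6%), against 17.6% of all genes and 26.6% of those at or above background. Vdac2, a channel through which metabolites cross the outer membrane, was 12.61, 12.28 and 12.34 in NCD and 13.37, 13.42 and 13.51 in HFD. The diets were widely separate, and Vdac2 rose 2.03-fold (1.02 ± 0.13, adjusted p = 0.0095). Its sister channel Vdac1 rose 1.73-fold (0.79 ± 0.12, adjusted p = 0.0157), the import pore Tomm40 1.44-fold (0.52 ± 0.11, adjusted p = 0.0432) and the oxoglutarate carrier Slc25a11 1.53-fold (0.61 ± 0.14, adjusted p = 0.0495). Over the 6 fits without 1 array, Vdac2 was called in 4, Vdac1 in 2, Tomm40 in 1 and Slc25a11 in 0.

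Of 19 genes listed with the tricarboxylic acid cycle, 15 were positive with a median of 0.23, and 1 was called. This was Mdh1, which encodes the cytosolic malate dehydrogenase of the malate-aspartate shuttle and not a mitochondrial enzyme of the cycle. Mdh1 rose 1.74-fold (0.80 ± 0.15, adjusted p = 0.0284) and was called in 1 of the 6 fits without 1 array. The 12 genes of coenzyme Q synthesis had a median of 0.14, and limma called 0, with 4 at an unadjusted p below 0.05. The 8 genes listed as other electron donors to the chain had a median of −0.04, or 0.054 with arrays centred on their medians, and 2 were positive. Of these, Suox, sulfite oxidase, which passes its electrons to cytochrome c, was at −0.57 ± 0.16 (adjusted p = 0.0825) and Etfa, the electron transfer flavoprotein of fatty acid oxidation, at 0.44 ± 0.15 (adjusted p = 0.134). limma called 0 of the 8, with 3 at an unadjusted p below 0.05.

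Of 20 measured regulators of mitochondrial biogenesis, 11 were positive and the median was 0.05. Nrip1, a co-repressor of oxidative genes, was 9.85, 9.73 and 9.77 in NCD and 9.23, 9.29 and 9.13 in HFD. It was lower on all HFD arrays and fell by 0.57 on the log2 scale (−0.57 ± 0.10, adjusted p = 0.0247). Nrip1 was called in 2 of the 6 fits without 1 array. For genes of factors that bind motifs searched above, the changes were −0.11 ± 0.09 for Nrf1 (adjusted p = 0.523) and −0.06 ± 0.13 for Gabpa, an ETS factor (adjusted p = 0.819). Tfam, which packs and transcribes mitochondrial DNA, differed by 0.04 ± 0.14 (adjusted p = 0.902), and the co-activator Ppargc1b by 0.20 ± 0.10 (adjusted p = 0.279). In the list of uncoupling and mitochondrial antioxidant genes, Atpif1 was the 1 gene of 17 that was called, and the median was 0.08.

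The direction over the members held in every setting tried, while the number called did not. The median stayed between 0.12 and 0.27 and that of complex II between 0.54 and 0.73. The replicate block and the fit without a trend cannot alter these medians. The number of members called ran from 0 to 14, while the share of all genes called ran from 0.478% to 18.4%. Scaling bore on the balance of calls: with each array centred on its median, 78.8% of all called genes were higher in HFD against 63.3% as deposited. The median over all genes was then 0.10, and 14 of 95 members rose, beside 8.53% of all genes.

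**Figure D5:**
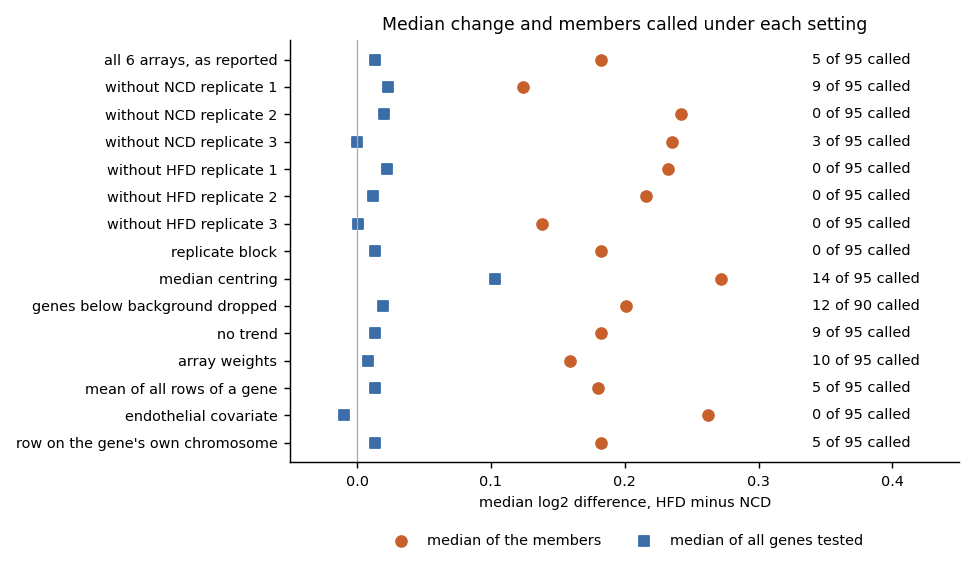
Median log2 change, HFD minus NCD, of the 95 members (orange circles) and of all genes tested (blue squares) under each setting, with the number of members called written at the right. The members' median lies above that of all genes in every setting, from 0.12 without NCD1 to 0.27 with median centring.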

How the data were processed

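Total RNA (100 ng per pool) was labelled for 1 Affymetrix array per sample, 3 pools per diet. Values are the deposited log2 expression of each transcript cluster, used as the authors made them. Per the submitters' processing notes, the tools were RMA, Transcriptome Analysis Console 3.1.0.5 and Affymetrix Expression Console 1.4.1.46. Their order, settings and the build are not given in the sources used here.

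Of 65956 transcript clusters, 30604 carried 1 gene symbol in the platform annotation, 2146 several and 33206 none. Another 6732 control rows were left out. The cluster with the highest mean over the 6 arrays was kept per gene, which gave 30145 genes, 352 of them with several rows. The background level, 6.23 log2, is the mean over arrays of the 95th percentile of 23 antigenomic probe sets. Arrays have no read depth, and their number limits the precision: the median SE of a change was 0.118.

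Diets were compared with limma 3.58.1 in R 4.3.3 with version 1.17.8 of data.table, using lmFit and eBayes with a trend, which gave 2.64 prior degrees of freedom. Two-sided p values were adjusted by the Benjamini-Hochberg method over all genes. Differences between the changes of a pair of genes were tested with an exact permutation test over the 20 splits of the arrays. The 5 pairs, each with Sdha or Atp5g1 as a side, were not among the planned comparisons. The fit was tested on simulated data. Tables and figures were made with Python 3.11.15, pandas 2.3.3 and matplotlib 3.10.9. Arrays correlated at 0.985 to 0.993 within NCD and at 0.995 within HFD.

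The members and the lists were chosen with earlier results of these data known, and no test was made over a list. Named genes were every member called, the highest and lowest change in each complex among genes above background, all of Sdha to Sdhd and Atp5g1 to Atp5g3, the tissue-restricted isoforms with their partners, and every called gene of the other lists. The further genes with an adjusted p between 0.05 and 0.1, Uqcrfs1, Cyc1, Atp5a1, Atp5b, the mitochondrially encoded genes, Suox, Etfa, Nrf1, Gabpa, Tfam and Ppargc1b were named after their values were seen. The alternatives left out each array, added a replicate block, centred each array on its median, dropped genes below background, fitted without a trend, weighted arrays, averaged the rows of a gene and added endothelial markers as a covariate. An alternative chosen after seeing the data used the row on the gene's own chromosome.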

Additional observations from a re-analysis of the deposited data

How the results depend on the processing

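The median change of the members was positive under all 14 alternatives, as were the medians of complexes I to V, and each moved by less than the spread between replicates, although that of complex IV fell to 0.052 without NCD1. Counts of calls moved with nearly every choice. Over fits without 1 array, all genes called ran from 442 to 4711 (2359 with all arrays), members called from 0 to 9 and genes called on the other lists from 0 to 22. The replicate block gave 144 genes, 0 members and 0 list genes by limma, with 20 members and 39 list genes at an unadjusted p below 0.05. The replicate numbers share a label and no known source, and same-numbered arrays did not deviate together (correlations of −0.457, −0.124 and −0.148), so the block is not a pairing of animals. The endothelial covariate gave 705 genes, 0 members and 0 list genes, with 14 members and 27 list genes at an unadjusted p below 0.05. Array weights gave 4280 genes, 10 members and 29 list genes. Median centring gave 14 of 95 members and 29 list genes, with 10.8% of all genes called. Dropping genes below background gave 12 of 90 members and 24 list genes, with 18.4% of the genes tested called. Fitting without a trend gave 9 of 95 members and 20 list genes, with 8.80% of all genes called. Without NCD2, HFD1, HFD2 or HFD3, limma called 0 members, with 27, 27, 19 and 17 at an unadjusted p below 0.05. The shares of all genes at that unadjusted level are not given here for the alternative fits. The number of positive members ran from 70 (without NCD1) to 90 (with centring) around 83, so members changed sign in some fits. Of the genes followed singly through every fit, 7 changed sign: Atp5j was 0.19 and Ndufa8 0.18 with the covariate, Cox6b2 was 0.017 with centring, and over fits without 1 array Cox7a2 ran from −0.033 (without NCD1) to 0.25 and Cox8a from −0.014 (without NCD1) to 0.31. Cox8c ran from −0.0039 to 0.17 over these fits and was −0.0017 with array weights. Cox8b ran from −0.046 to 0.037, positive without NCD3, HFD2 (0.011) or HFD3 (0.00072), and was 0.082 with centring and 0.098 with the covariate. Cox6b2, Cox8b and Cox8c lie below background. Of the other checks on single genes and single lists, 563 were unchanged, 134 lost calls and 34 gained them, and 22 list medians moved by more than the spread between replicates. Unchanged meant the same direction and call for a gene, a similar number called for a list, or a list median that moved by less than that spread. The median of the biogenesis regulators ran from −0.035 to 0.144, and that of the other electron donors was 0.054 with centring. The cause of these shifts was not tested.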

Other observations

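Some array rows carry the symbol of a respiratory gene together with that of a near-identical copy and were left out of the comparison. The row of Ndufa11 and Ndufa11b was 7.71, 7.94 and 7.84 in NCD and 7.93, 8.17 and 8.03 in HFD, a difference of 0.21. The row of Ndufb4 and Gm3244 differed by 0.13, that of Cox5b and Gm11273 by 0.20 and that of Atp5g2 and Gm10231 by 0.46. Among members with several rows of their own, those of Atp5d differed in sign: the brighter row gave 0.21, and the other, below the background level, −0.18. The bright row of Atp5l, at 0.22, has an identifier on chromosome 5 while RefSeq places the gene on chromosome 9, and its rows on chromosome 9 gave 0.35 and 0.06. Genes of one family share sequence, so the levels of Atp5g2, Atp5l, Cycs and Ndufb4b may include their copies.

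With 3 arrays per diet and 1 array per pool, the median SE of a single gene was 0.118 beside a median change of 0.18 for the members. The 5 calls were lost without NCD2, HFD1, HFD2 or HFD3, fits in which fewer of all genes were called too. Whether the smaller number of arrays or the pools themselves account for these losses was not tested. RNA levels of subunits were measured, not protein, complexes or respiration. The diets also differed in the number of mice per pool, 20 for NCD and 10 for HFD, which cannot be told apart from diet.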
